A study of Mus musculus with 4 samples.

Results

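The genes described here are 10 heat shock genes of the cytosol and the mitochondrion: Hspb1, Hsp90aa1, Hsp90ab1, Hspa8, Dnajb1, Hspa4, Hsph1, Hspd1, Hspe1 and Hsf1. They were chosen by name, and all 10 had values among the 12967 gene symbols measured. RNA immunoprecipitation followed by sequencing had been carried out on 4T1 cells, a metastatic mouse mammary carcinoma line, to ask which mRNAs the RNA-binding protein Caprin-1 holds when lipid metabolism is altered and how its complex with PD-L1, the immune checkpoint ligand, bears on that. One line of cells stably expressed a control shRNA (shSCR) and the other an shRNA against CerS4, a ceramide synthase (shCerS4). Both grew in the same medium with 10% serum and 4 µg/mL puromycin, which the control line carried too. Each line was precipitated once with anti-Caprin-1 and once with IgG, the background control, and the resulting 4 groups are named by shRNA and antibody, from shSCR IgG to shCerS4 Caprin-1. Each group was 1 library, the labels name 1 shRNA and no number of clones, and no difference below has a replicate check.

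Heat shock proteins bind unfolded or partly folded proteins and keep them from clumping until they are folded, handed on or destroyed. The cytosolic system runs on HSC70 with its J-domain partners and its nucleotide exchange factors, and on HSP90, which finishes the folding of kinases and hormone receptors on which tumour cells rely. In the mitochondrial matrix the barrel of HSP60 and its lid HSP10 fold imported proteins. HSF1, the heat shock factor, is held inactive by chaperones in unstressed cells and, once released, binds heat shock elements in the promoters of chaperone genes.

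A heat shock element is a row of GAA units in alternating orientation. The letters GAANNTTC or TTCNNGAA spell 2 such units, and each is its own reverse complement. One more unit, for 3 in all, was required by adding NNGAA to the first or NNTTC to the second, which are each other on the opposite strand, so every 3-unit match also holds 2-unit matches. Both were searched on both strands of RefSeq promoter windows of build GRCm38.p6, from 250 bases before to 50 bases after a start site. Windows were matched by symbol for 6 of the 10 genes, Hspb1, Hsph1, Hspd1, Hspe1, Dnajb1 and Hspa4. The 3-unit letters stood in windows of Hspd1, Hspe1 and Hsph1, and in 0.603% of all 32851 windows. The 2-unit letters stood in windows of Hspb1 as well, and in 15.1% of all windows. A match is a run of letters, not a shown binding site, and no binding of HSF1 was measured. The stretch between a start site of Hspd1 (55087932, minus strand) and that of Hspe1 (55088148, plus strand) is shown because these 215 bases hold 2 overlapping 3-unit matches, in capitals, upstream of both sites. Hspd1 has a second annotated start at 55088243, from which this stretch lies inside the gene, and the 250 bases upstream of that start hold 0 matches of either motif. It lies at chr1:55087933-55088147 and is written on the plus strand.
Hspd1 to Hspe1: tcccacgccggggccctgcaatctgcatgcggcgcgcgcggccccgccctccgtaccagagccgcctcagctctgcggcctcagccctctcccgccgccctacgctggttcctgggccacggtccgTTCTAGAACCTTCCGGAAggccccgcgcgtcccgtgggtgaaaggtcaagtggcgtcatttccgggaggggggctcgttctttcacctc
The promoter of Hspb1 is shown because Hspb1 is the gene whose values differed most between libraries. It lies at chr5:135887669-135887918 on the plus strand, ends at the base before the start site, and holds 2 separate 2-unit matches, in capitals.
Hspb1: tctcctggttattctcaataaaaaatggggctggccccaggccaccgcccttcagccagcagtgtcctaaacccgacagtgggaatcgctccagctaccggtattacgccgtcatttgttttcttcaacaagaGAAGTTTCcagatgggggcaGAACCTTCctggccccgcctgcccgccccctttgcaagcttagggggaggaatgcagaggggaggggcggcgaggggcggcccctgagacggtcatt
The 3-unit match of Hsph1 lies downstream of the start sites of both its windows, at positions 37 and 16 from them. Neither window is placed on the start of the gene itself, which lies further upstream, at 149636498. The match is shown in capitals with its flanks, at chr5:149636280-149636308 on the minus strand.
Hsph1: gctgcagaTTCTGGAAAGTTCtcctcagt

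Values are CPM, counts per M reads of the library, summed over the transcripts of a gene. Library depths estimated from the spacing of the values were 19.7 M to 27.0 M reads, and 3 reads were worth 0.111 to 0.152 CPM. Ratios are log2 ratios of CPM with 0.5 reads added, and brackets give the 95% counting interval, which covers counting error between these libraries and neither amplification nor variation between cultures. All 10 genes passed the filter on low values, a mean of 5 CPM or more, as did 10283 genes in all. A gene was counted as past 2-fold or 1.5-fold when its ratio reached that size and its interval excluded 0. Lengths of the transcripts were not used, so levels of different genes are not set against each other. Markers of mammary epithelium were present, with all 8 of 8 measured and a summed level of 5160 to 10245 CPM. Of other cell types, 6 of 8 fibroblast markers summed to 21.5 to 69.3 CPM, most of it Pdgfra at 19.2 to 58.9 CPM, 2 of 8 leukocyte markers summed to 15.4 to 49.1 CPM, most of it Cd68 at 14.6 to 49.1 CPM, and the 1 endothelial marker of 5 with values, Kdr, was at 0.666 CPM in shSCR IgG and at 0 in the others. The knockdown of Cers4 was not checked here.

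Of the 10 genes, Hspb1 was the only one past 1.5-fold in any comparison under total-count scaling. It passed the filter on low values through the shSCR libraries, where it was high, and lay below 5 CPM in both shCerS4 libraries, so its calls and the counts that hold it are a description of this gene. With Caprin-1 its mRNA was 4.70-fold lower in shCerS4 than in shSCR cells, and with IgG 2.79-fold lower. Past 1.5-fold with Caprin-1, 0 of 10 were higher and 1 lower, where 19.2% and 10.9% of all genes were, and with IgG again 0 and 1, where 17.3% and 11.7% were. The other 9 genes stayed within 1.42-fold between the members of every pair of libraries compared. In each library the 10 genes together took 1.2 to 1.48% of all reads, with the highest share in the shSCR Caprin-1 library at 1.48%, against 1.31% in shSCR IgG, 1.2% in shCerS4 IgG and 1.21% in shCerS4 Caprin-1. Across the 4 libraries Hspb1 spanned 2.53 on the log2 scale, Hspa8 0.63, Dnajb1 0.60 and Hsph1 0.52, and the other 6 genes 0.18 to 0.35.

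**Figure D1:**
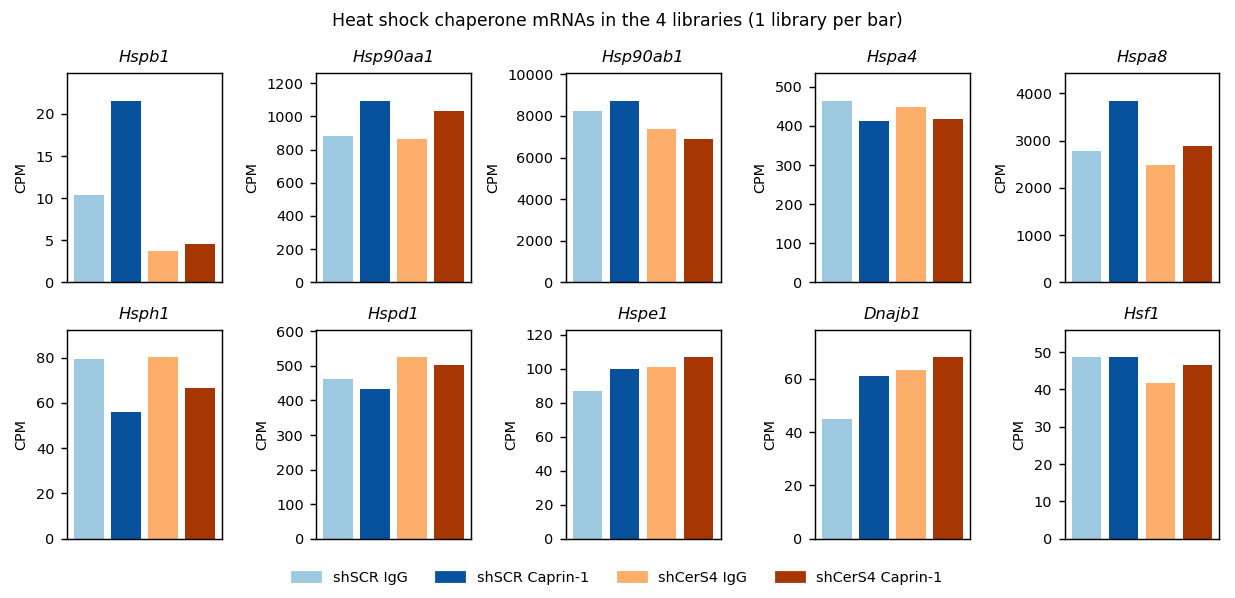
CPM (vertical axis, starting at 0, with its own scale per gene) of the 10 heat shock genes in the 4 libraries, 1 library per bar. Hspb1 drops from 21.6 CPM in shSCR Caprin-1 to 4.58 CPM in shCerS4 Caprin-1, whereas bars of the other genes differ little.

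Hspb1 encodes the small heat shock protein HSP25, the mouse form of HSP27, which holds unfolded proteins without using ATP and binds to the actin skeleton. It lies at chr5:135887919-135889563 in build GRCm38, and 1 transcript carried all of its values. Hspb1 has 1 pseudogene named in the gene reference, for which there were no values. It stood at 10.4 CPM in shSCR IgG, 21.6 CPM in shSCR Caprin-1, 3.71 CPM in shCerS4 IgG and 4.58 CPM in shCerS4 Caprin-1. Both shSCR libraries were above both shCerS4 libraries. These levels rest on 206, 584, 73 and 113 estimated reads, the lowest of any of the 10 genes. The log2 ratio of shCerS4 over shSCR was −2.23 [−2.54, −1.94] with Caprin-1, lower than that of all but 0.535% of genes tested, and −1.48 [−1.89, −1.09] with IgG, lower than all but 2.30%. Of the 10 genes, 1 was thus lower past 2-fold in each of these comparisons and 0 were higher. Over all genes tested, 4.95% were lower and 6.25% higher past 2-fold with Caprin-1, and 5.34% and 5.69% with IgG. Trimmed-mean scaling turned that split, to 639 lower and 442 higher with Caprin-1, in place of 509 and 643, and 620 and 475 with IgG, in place of 549 and 585. A count of 1 in 10 is too small to set the group apart from that background. Of the marker genes, the leukocyte marker Cd68 was lower in the same libraries, at 25.9, 49.1, 14.9 and 14.6 CPM in the order above. Csf1r, the other leukocyte marker with values, went the other way, on 1, 0, 14 and 20 estimated reads. The fibroblast marker Pdgfra was lower in shCerS4 cells, at log2 ratios of −0.29 [−0.47, −0.12] with Caprin-1 and −0.58 [−0.71, −0.45] with IgG. The other fibroblast markers with values lay below the filter on low values. With Caprin-1, Col3a1 (2.53 [0.94, 5.12]) and Thy1 (1.72 [0.30, 3.61]) were higher, and the intervals of Col1a1, Col1a2 and Lum included 0. With IgG, Col1a1 (−0.63), Col1a2 (−0.90), Col3a1 (−4.51) and Lum (−5.27) were lower, and the interval of Thy1 included 0. The 8 epithelial markers differed in both directions, with a median log2 ratio of shCerS4 over shSCR of 0.23 with Caprin-1, from −1.30 for Krt8 to 2.22 for Cldn4. Of these, Krt8, Krt18 (−0.85) and Krt7 (−0.33) were lower, and Cdh1 (1.06), Cldn7 (0.83), Krt19 (0.35), Epcam (0.12) and Cldn4 were higher. The defining leukocyte markers Ptprc and Itgam had no values, and the part of these markers in the level of Hspb1 was not tested. In such precipitates fewer cells of a type and less RNA per cell cannot be told apart.

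The median log2 ratio of shCerS4 over shSCR over the 10 genes was −0.02 with Caprin-1 and −0.04 with IgG. Over all genes tested it was 0.15 and 0.10, and a different scaling shifts all of these values together. Relative to all genes, the median of the 10 stood at −0.17 with Caprin-1 and −0.14 with IgG on the log2 scale, under each of the 3 scalings. The Caprin-1 precipitates and the IgG precipitates share no library.

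**Figure D2:**
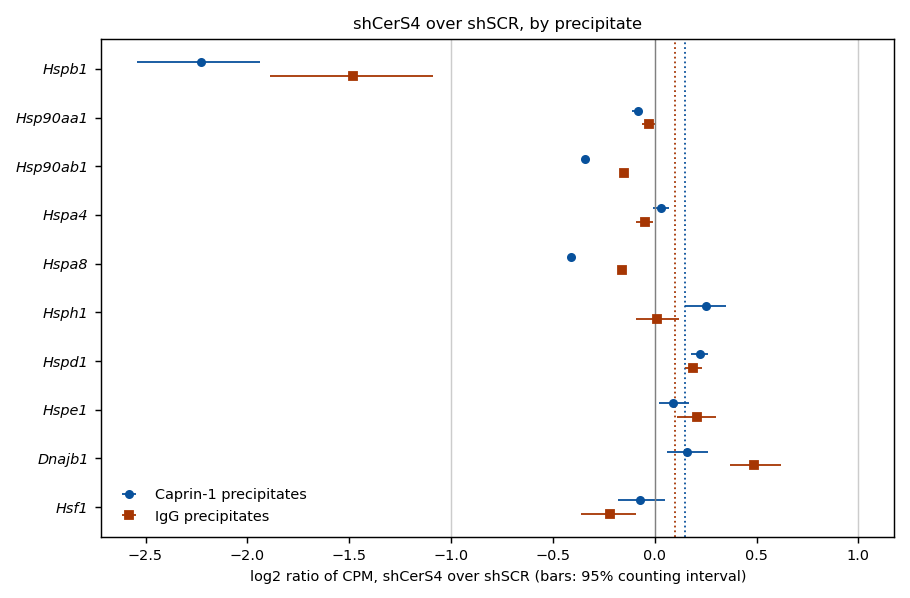
Log2 ratios of shCerS4 over shSCR (horizontal axis) for the 10 genes, in Caprin-1 precipitates (circles) and IgG precipitates (squares), with 95% counting intervals. Dotted lines mark the medians of all genes tested, 0.15 and 0.10, and grey lines mark 2-fold; Hspb1 alone lies beyond 2-fold.

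The HSP90 pair differed from each other in a small and precisely counted way. Hsp90aa1 encodes the stress-inducible cytosolic form HSP90α and Hsp90ab1 the constitutive form HSP90β. Hsp90aa1, at chr12:110691036-110696395, stood at 881 CPM in shSCR IgG, 1096 in shSCR Caprin-1, 862 in shCerS4 IgG and 1035 in shCerS4 Caprin-1. Both Caprin-1 libraries were above both IgG libraries. Hsp90ab1, at chr17:45567778-45573261, stood at 8223, 8742, 7395 and 6913 CPM in the same order, with both shSCR libraries above both shCerS4 libraries. In the Caprin-1 precipitates the log2 ratio of shCerS4 over shSCR was −0.08 [−0.11, −0.06] for Hsp90aa1 and −0.34 [−0.35, −0.33] for Hsp90ab1. The difference of the paralogs, on which scaling has no bearing, was 0.26 [0.23, 0.28] with Caprin-1 and 0.12 [0.09, 0.15] with IgG. These forms are similar in sequence, so reads could be divided between them with some error.

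Among the HSC70 machinery, Hspa8 was the gene whose level differed most between libraries. Hspa8 encodes HSC70, the constitutive cytosolic chaperone that clothes newly made proteins, and lies at chr9:40801276-40805202. It stood at 2772 CPM in shSCR IgG, 3848 in shSCR Caprin-1, 2489 in shCerS4 IgG and 2894 in shCerS4 Caprin-1. The shSCR Caprin-1 library was the highest and the other 3 lay within 2489 to 2894 CPM. The log2 ratio of shCerS4 over shSCR was −0.41 [−0.42, −0.40] with Caprin-1, a 1.33-fold difference, and −0.16 [−0.17, −0.14] with IgG. Hspa8 had 2 transcripts, and their ratios with Caprin-1 were −0.39 and −0.45. The more abundant transcript held 60.2 to 64.7% of the gene in each library. Introns of Hspa8 hold the snoRNA genes Snord14c, Snord14d and Snord14e, for which no separate values were used.

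Dnajb1 encodes HSP40, the J-domain partner that stimulates the ATPase of HSC70, and lies at chr8:83608175-83612653. It stood at 45.1 CPM in shSCR IgG, 61.0 in shSCR Caprin-1, 63.3 in shCerS4 IgG and 68.3 in shCerS4 Caprin-1. The shSCR IgG library stood apart below the other 3. The log2 ratio of shCerS4 over shSCR was larger with IgG, at 0.49 [0.37, 0.62], than with Caprin-1, at 0.16 [0.06, 0.26]. Dnajb1 and its partner Hspa8 differed from each other by 0.57 [0.48, 0.67] with Caprin-1 and 0.65 [0.52, 0.77] with IgG, Dnajb1 being higher.

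Hspa4 and Hsph1 encode HSP110 proteins, relatives of HSC70 that act as its nucleotide exchange factors. Hspa4, at chr11:53259814-53300479, stood at 465 CPM in shSCR IgG, 412 in shSCR Caprin-1, 449 in shCerS4 IgG and 419 in shCerS4 Caprin-1, with both IgG libraries above both Caprin-1 libraries. Its ratio of shCerS4 over shSCR was 0.03 [−0.01, 0.07] with Caprin-1, which turned below 0 under trimmed-mean and median-of-ratios scaling, and −0.05 [−0.09, −0.01] with IgG. Hsph1, at chr5:149616843-149636498, stood at 79.5, 55.8, 80.3 and 66.4 CPM in that order, again with both IgG libraries highest. Its ratio was 0.25 [0.15, 0.35] with Caprin-1 and 0.01 [−0.09, 0.12] with IgG, the latter turning below 0 under the same scalings.

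Hspd1 and Hspe1, which encode HSP60 and HSP10, had ratios of shCerS4 over shSCR near those of all genes. The medians of all genes tested were 0.15 with Caprin-1 and 0.10 with IgG. Hspd1, at chr1:55077833-55088243, stood at 461 CPM in shSCR IgG, 432 in shSCR Caprin-1, 526 in shCerS4 IgG and 503 in shCerS4 Caprin-1, with both shCerS4 libraries above both shSCR libraries. Hspe1, at chr1:55088148-55091317, stood at 87.1, 100, 101 and 107 CPM in that order. With IgG their ratios of shCerS4 over shSCR were 0.19 [0.15, 0.23] and 0.21 [0.11, 0.30], and the difference between the genes was −0.01 [−0.12, 0.09]. With Caprin-1 the ratios were 0.22 [0.18, 0.26] and 0.09 [0.02, 0.17], a difference of 0.13 [0.04, 0.21], and that of Hspe1 turned below 0 under trimmed-mean and median-of-ratios scaling. Both are counted with some uncertainty, because they overlap by 96 bases at their 5′ ends with the strand of the reads not stated, and have 5 and 7 pseudogenes named in the gene reference.

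Hsf1, which encodes the heat shock factor itself, lies at chr15:76477362-76501155. It stood at 48.6 CPM in shSCR IgG, 48.7 in shSCR Caprin-1, 41.7 in shCerS4 IgG and 46.5 in shCerS4 Caprin-1. Only the shCerS4 IgG library was lower than the rest. The ratio of shCerS4 over shSCR was −0.07 [−0.18, 0.05] with Caprin-1 and −0.22 [−0.36, −0.09] with IgG. Hsf1 had 7 transcripts, of which the most abundant held 83.1 to 90.9% of the gene in each library. The ratios of that transcript were −0.06 [−0.19, 0.07] with Caprin-1 and −0.11 [−0.25, 0.04] with IgG, and both intervals included 0. An mRNA level does not report whether the HSF1 protein is active.

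Caprin-1 precipitates were next set against IgG precipitates in each cell line, to see which of these mRNAs held a larger share with Caprin-1. Hspb1 held a 2.08-fold larger share in shSCR cells and a 1.23-fold larger one in shCerS4 cells, at log2 ratios of 1.05 [0.83, 1.29] and 0.30 [−0.13, 0.75]. In shSCR cells that ratio was above that of 98.7% of genes tested. Hspb1 was the 1 gene of 10 higher past 2-fold in shSCR cells, where 1.69% of all genes were higher and 13.0% lower. In shCerS4 cells 0 of 10 were past 2-fold in either direction, where 0.934% of all genes were higher and 8.02% lower. The split of all genes depends on scaling: under trimmed means it came to 499 higher against 851 lower for the shSCR line, in place of 174 and 1337, and 217 against 567 for the shCerS4 line, in place of 96 and 825. No RNA yield was measured, so each ratio is relative to the other mRNAs of the library.

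The median Caprin-1 over IgG log2 ratio of the 10 genes was 0.15 in shSCR and 0.10 in shCerS4 cells, where the medians of all genes tested were −0.13 and −0.11. The ratio of Hspa8 was 0.47 [0.46, 0.49] for the shSCR line and 0.22 [0.20, 0.23] for the shCerS4 line. Dnajb1 stood at 0.44 [0.32, 0.56] and 0.11 [0.00, 0.22], and Hsp90aa1 at 0.31 [0.29, 0.34] and 0.26 [0.24, 0.29]. These 3 genes and Hspb1 had the highest ratios of the 10 in shSCR cells, whereas Hsph1 had the lowest in both cell lines, at −0.51 [−0.61, −0.41] and −0.27 [−0.37, −0.17]. Under trimmed-mean and median-of-ratios scaling, Hspa8 and Dnajb1 joined Hspb1 past 1.5-fold in shSCR cells, which made 3 of 10 in place of 1 of 10. Over all genes, 11.4% passed 1.5-fold upward and 27.5% downward under total-count scaling, but 20.3% and 18.9% upward under those scalings in turn, so the share of all genes moved upward as well. For the shCerS4 line 0 of 10 were past 1.5-fold, where 8.69% of all genes were higher and 22.6% lower.

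**Figure D3:**
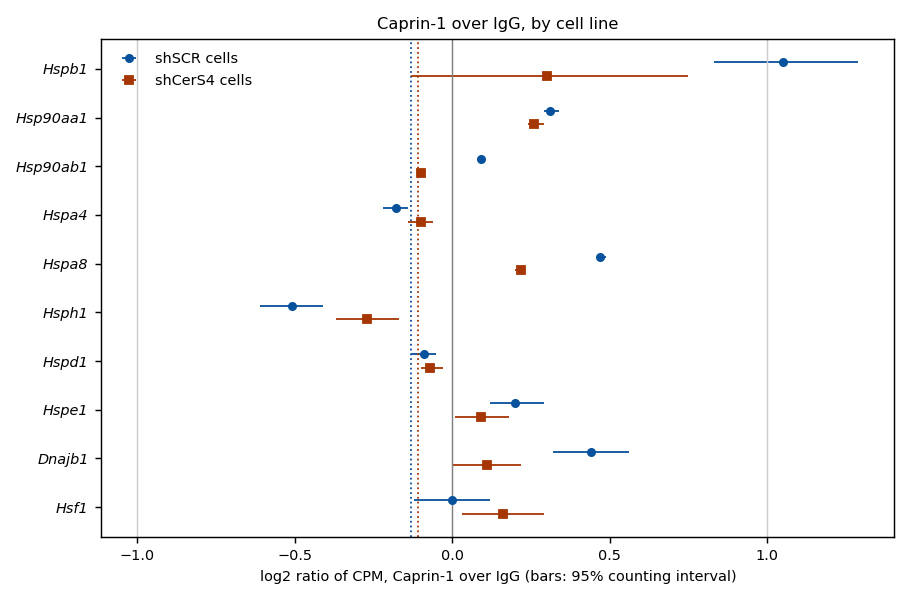
Log2 ratios of Caprin-1 over IgG (horizontal axis) for the 10 genes in shSCR cells (circles) and shCerS4 cells (squares), with 95% counting intervals. Dotted lines mark the medians of all genes tested, −0.13 and −0.11; Hspb1 in shSCR cells is the point past the grey line at 2-fold, and Hsph1 is the lowest gene in both lines.

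The remaining genes stood near the bulk of the transcriptome. Hspe1 had Caprin-1 over IgG ratios of 0.20 [0.12, 0.29] in shSCR and 0.09 [0.01, 0.18] in shCerS4 cells. Hsp90ab1 stood at 0.09 and −0.10, Hspd1 at −0.09 and −0.07, Hspa4 at −0.18 and −0.10, and Hsf1 at 0.00 and 0.16. Among these, the ratios of Hspd1 and Hspa4 in both lines and of Hsp90ab1 in shCerS4 cells turned above 0 under trimmed-mean or median-of-ratios scaling. Paralogs separated within the families, independent of scaling. Hsp90aa1 exceeded Hsp90ab1 by 0.23 [0.20, 0.25] in shSCR and 0.36 [0.33, 0.39] in shCerS4 cells, and Hspa8 exceeded Hspa4 by 0.65 [0.61, 0.69] and 0.32 [0.27, 0.36]. Between the subunits of the mitochondrial chaperonin, Hspd1 stood below Hspe1 by −0.30 [−0.39, −0.20] and −0.16 [−0.25, −0.07].

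The Caprin-1 over IgG ratio differed with genomic span across all genes, and the 10 genes are mostly compact. Among genes tested, the median ratio in shSCR cells was 0.31 for the 2511 genes under 10 kb, −0.03 for the 3522 genes of 10 to 30 kb and −0.55 for the 4241 genes over 30 kb. The 6 heat shock genes under 10 kb (Hspb1, Hsp90aa1, Hsp90ab1, Hspa8, Hspe1 and Dnajb1) had a median of 0.38, and the 3 of 10 to 30 kb (Hsph1, Hspd1 and Hsf1) one of −0.09. In shCerS4 cells the genes under 10 kb had a median of 0.22 and the 6 heat shock genes 0.16. Read against genes of like span, these medians were close to those of the rest. Single genes lay outside the quartiles of their span in shSCR cells. Hspb1 at 1.05 was above the upper quartile of genes under 10 kb, 0.59. Hsph1 at −0.51 was below the lower quartile of genes of 10 to 30 kb, −0.42. The part of span in these ratios was not tested. Hspa4, the longest at 40666 bp, stood at −0.18 in shSCR cells, just below the upper quartile of genes over 30 kb, −0.12. RNAs known to stay in the nucleus were lower with Caprin-1, 4 of 5 of them summing to 227 CPM in shSCR IgG, 73.3 in shSCR Caprin-1, 343 in shCerS4 IgG and 121 in shCerS4 Caprin-1. Their part in the ratios of the heat shock genes was not tested.

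**Figure D4:**
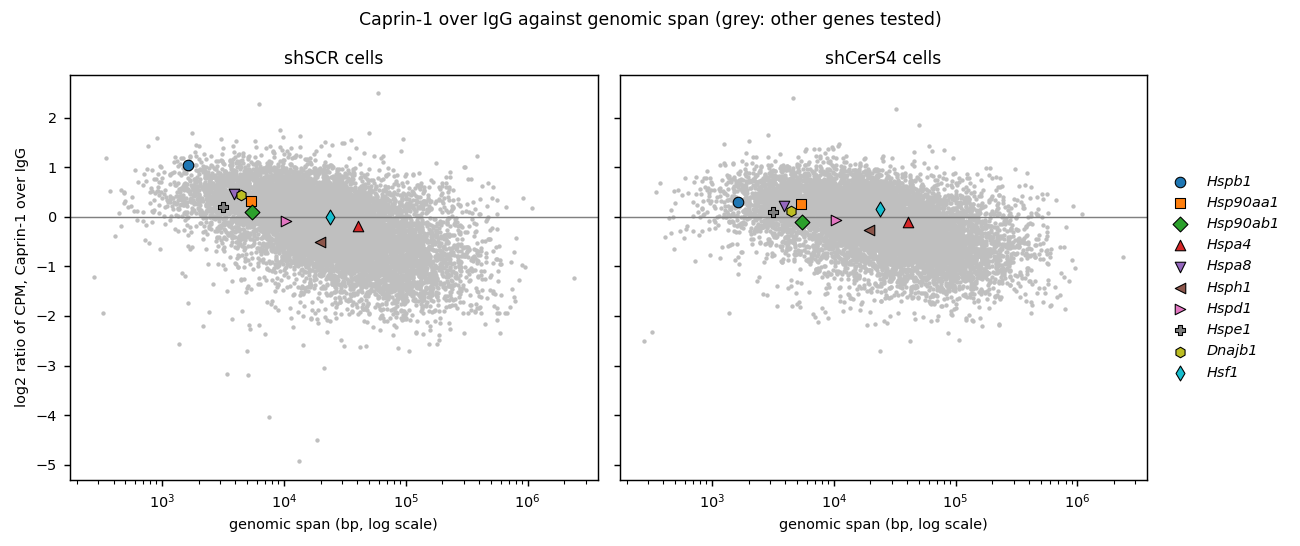
Caprin-1 over IgG log2 ratio (vertical axis) against genomic span in base pairs (horizontal log axis), in shSCR cells (left) and shCerS4 cells (right). Grey points are the other genes tested and coloured symbols the 10 heat shock genes; in shSCR cells the compact Hspb1 lies above most short genes, at 1.05, Hspa8 and Dnajb1 lie among the short genes above 0, and Hspa4 and Hsph1 among longer genes below 0.

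The change of the Caprin-1 over IgG ratio from shSCR to shCerS4 cells was under 1.5-fold for 9 of the 10 genes. Hspb1 was 1.69-fold lower, a difference of −0.75 [−1.24, −0.27], and so the 1 gene of 10 lower past 1.5-fold, where 2.62% of all genes were lower and 4.24% higher. None of the 10 was past 2-fold, as were 0.632% of all genes higher and 0.350% lower. Dnajb1 followed at −0.33 [−0.49, −0.17], Hspa8 at −0.26 [−0.28, −0.23] and Hsp90ab1 at −0.19 [−0.20, −0.17]. These were lower than all but 10.0%, 14.6% and 21.0% of genes tested, in turn. Hsph1 had the highest value, at 0.24 [0.09, 0.38]. The median of the 10 was −0.08, where that of all genes was 0.04. Under 10 kb of genomic span the median was −0.08 for all genes and −0.22 for the 6 heat shock genes. From 10 to 30 kb it was 0.02 for all genes and 0.16 for the 3 heat shock genes. The part of span in this change was not tested.

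Other chaperone genes, listed by family, gave the setting for these values. Of 128 genes in 10 lists, 112 were tested, and with Caprin-1 the ratio of shCerS4 over shSCR passed 2-fold upward for 4 (3.57%) and downward for 3 (2.68%), where 6.25% and 4.95% of all genes did. Their median was 0.15, as was that of all genes. The 4 higher genes were Hspa9, Cdc37l1, Hspb2 and Hyou1, and the 3 lower ones Hspa2, Dnajc9 and Pfdn6. In the IgG precipitates 6 (5.36%) were higher, namely Hspb2, Hspb8, Cdc37l1, Sil1, Dnajc21 and Hscb, and 1 (0.893%), Dnajc9, was lower, where 5.69% and 5.34% of all genes were. Under trimmed-mean and median-of-ratios scaling Dnajc21 and Hscb fell below 2-fold with IgG, and 1 prefoldin subunit became lower past 2-fold. Of all genes, 4.62% and 4.39% were then higher, and 6.03% and 6.25% lower, in turn.

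The mitochondrial chaperones and proteases had a median log2 ratio of 0.52 over 17 genes tested with Caprin-1 and 0.43 with IgG, where all genes had 0.15 and 0.10. In all 7 of the 17 were higher past 1.5-fold with Caprin-1, against 19.2% of all genes, and 0 were lower, against 10.9%. Under trimmed-mean and median-of-ratios scaling 4 of the 17 were higher, against 13.5% and 13.8% of all genes. Hspa9, which encodes mortalin, the mitochondrial HSP70 that hands proteins to HSP60, stood at 677 CPM in shSCR IgG, 574 in shSCR Caprin-1, 1237 in shCerS4 IgG and 1193 in shCerS4 Caprin-1. Both shCerS4 libraries were thus well above both shSCR libraries, with log2 ratios of 1.06 [1.03, 1.08] with Caprin-1 and 0.87 [0.84, 0.90] with IgG, while Hspd1 stood at 0.22 and 0.19. With Caprin-1, Hspa9 was under 2-fold at 0.91 with trimmed means and 0.93 with median of ratios. Trap1, the mitochondrial HSP90, stood at −0.09 and −0.40. Clpp, a matrix protease, had the highest Caprin-1 over IgG ratio of the list in shSCR cells, at 0.87, and Yme1l1, an inner membrane protease, the lowest, at −0.76.

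Of the other small heat shock proteins 4 were tested, with values that differed among themselves. Hspb8, a partner of the co-chaperone BAG3, stood at 51.8 CPM in shSCR IgG, 92.3 in shSCR Caprin-1, 114 in shCerS4 IgG and 161 in shCerS4 Caprin-1, ratios of shCerS4 over shSCR of 0.80 [0.73, 0.88] with Caprin-1 and 1.14 [1.03, 1.24] with IgG. Hspb2 stood at 2.07, 4.84, 10.3 and 14.5 CPM, ratios of 1.58 [1.29, 1.89] and 2.30 [1.83, 2.84], and passed the filter through the shCerS4 libraries. Cryab, which encodes αB-crystallin, stood at 0.85 and 0.62, and Hspb6 at 0.05 and 0.28. In shSCR cells Hspb8 (0.83) and Hspb2 (1.21) also had Caprin-1 over IgG ratios above 0, as Hspb1 did. Hspb2 rested on 41 estimated reads in shSCR IgG. The intervals of Cryab (−0.18 [−0.49, 0.13]) and Hspb6 (0.14 [−0.10, 0.39]) included 0.

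The 6 other HSP70 and HSP110 genes tested had a median of −0.03 with Caprin-1 and −0.29 with IgG, where all genes had 0.15 and 0.10. Hspa2 stood at −1.32 with Caprin-1 and −0.62 with IgG, Hspa13 at −0.49 and −0.79, and Hspa9 at 1.06 and 0.87.

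Of 22 other cytosolic J-domain genes tested, 2 (Dnajb4 and Dnajc21) were higher past 1.5-fold with Caprin-1 and 1, Dnajc9, was lower, where 19.2% and 10.9% of all genes were. Under trimmed-mean and median-of-ratios scaling 0 were higher and 3 lower. Of all genes, 13.5% and 13.8% were then higher, and 15.0% and 14.6% lower, in turn. Dnajc9, a histone chaperone, stood at −1.40 with Caprin-1 and −1.44 with IgG, Dnajb4 at 0.69 and 0.73, and Dnaja2 at 0.41 and 0.49. Dnajc13, an endosomal protein, had a Caprin-1 over IgG ratio of −1.60 in shSCR and −1.13 in shCerS4 cells, and Dnajc17 had the highest, at 0.86 and 1.00. None of the 10 nucleotide exchange and co-chaperone genes of HSP70 was past 1.5-fold with Caprin-1, their range being −0.29 for Bag6 to 0.36 for Bag5. Over IgG in shSCR cells they ran from −0.65 for Bag4 to 0.51 for Bag2.

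The HSP90 co-chaperones had a median of −0.09 over 19 genes with Caprin-1, from −0.84 for Fkbp5, an immunophilin induced by glucocorticoids, to 1.18 for Cdc37l1. Cdc37, the co-chaperone that brings kinases to HSP90, stood at −0.17 with Caprin-1 and 0.11 with IgG. Fkbp8 had the highest Caprin-1 over IgG ratio of that list in shSCR cells, at 0.78, and Tsc1 the lowest, at −0.92. The 8 subunits tested of TRiC, the cytosolic chaperonin that folds actin and tubulin, ran from −0.14 for Tcp1 to 0.47 for Cct2, with Cct5 at −0.08. With Caprin-1, 0 of the 8 were past 1.5-fold, where 19.2% of all genes were higher and 10.9% lower. A list of 8 genes is too small to be set apart from that background. Caprin-1 over IgG ratios of the TRiC subunits in shSCR cells ran from −0.12 for Cct8 to 0.32 for Cct5.

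Prefoldin, which delivers actin and tubulin to TRiC, had a median of −0.05 over 6 subunits with Caprin-1. Pfdn6 stood at −1.07 with Caprin-1 and −0.97 with IgG, Pfdn2 at −0.74 and −0.11, and Pfdn4 at 0.42 and 0.58. Their Caprin-1 over IgG ratios in shSCR cells ran from 0.14 for Vbp1 to 0.84 for Pfdn6. Of the other heat shock factors and regulators, Hsf2 stood at 0.29 and 0.02, Hsbp1, whose product binds HSF1, at 0.84 and 0.88, and Hikeshi, which carries HSP70 into the nucleus, at −0.36 and −0.03. In the endoplasmic reticulum, Hspa5, which encodes BiP, stood at 0.71 [0.70, 0.73] and 0.54 [0.52, 0.56], Hyou1 at 1.27 and 0.86 and Sdf2l1 at −0.57 and −0.34. Dnajb11 had the highest Caprin-1 over IgG ratio of those 18 genes in shSCR cells, at 0.82, and Dnajc3 the lowest, at −0.66.

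**Figure D5:**
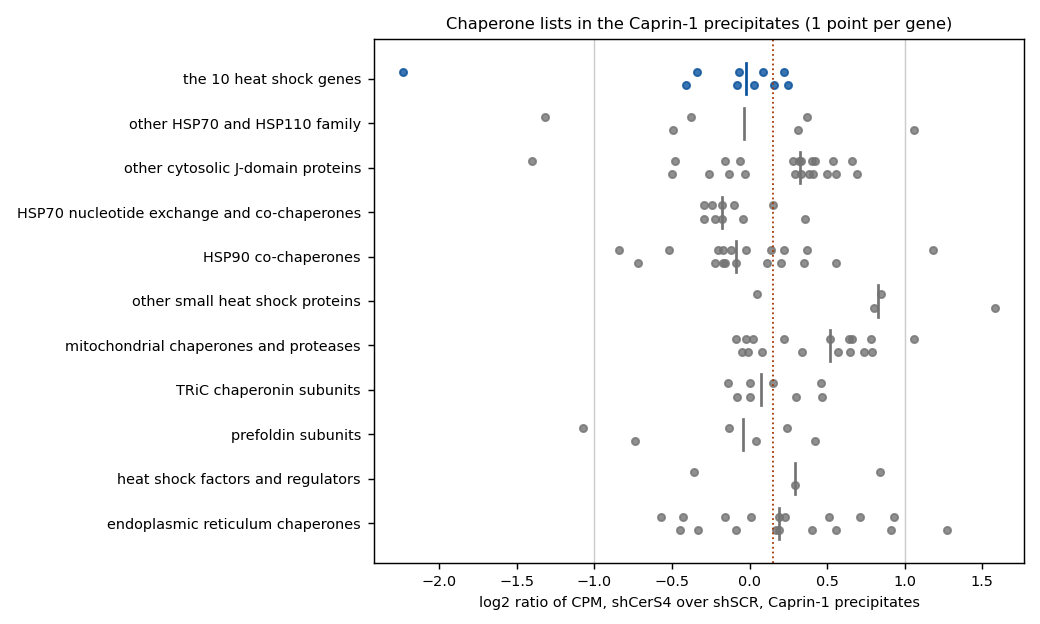
Log2 ratios of shCerS4 over shSCR in the Caprin-1 precipitates (horizontal axis) for the 10 heat shock genes (blue) and 10 other chaperone lists (grey), 1 point per gene tested and a bar at each median. The dotted line is the median of all genes, 0.15, and Hspb1 at −2.23 lies to the left of every other chaperone gene drawn.

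Hspb1, the gene with the widest range, was compared with the 7727 other genes averaging 20 CPM or more by the distance of log2 CPM, centred on each gene's mean, over the 4 libraries. The nearest were S100a4, Spc24, Birc5, Chaf1b and Grap, at distances of 0.312 to 0.388. S100a4, a calcium-binding protein gene, stood at 568 CPM in shSCR IgG, 871 in shSCR Caprin-1, 179 in shCerS4 IgG and 222 in shCerS4 Caprin-1. Spc24 and Birc5 encode a kinetochore protein and survivin, and Chaf1b a chromatin assembly factor. With 4 libraries many genes have such a profile, and the distance is a description only.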

How the data were processed

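RNA of 4 precipitates was sequenced, 1 library per group, from polyadenylated RNA with a SMARTER kit, per the labels' protocols. STAR, Partek and the build mm10 are named in the submitters' processing notes, without versions. The deposited values are CPM per transcript, with columns of equal sum, made by the authors with 0.0001 added to each of the 24393 transcripts. Values were summed per symbol, and reads were estimated from their spacing: below 40 CPM, 80.4 to 81.8% of gene values came out whole within 0.05 reads. Log2 ratios used 0.5 added reads and total scaling, with 95% exact binomial counting intervals, and normal ones for differences of ratios or genes. With 1 library per group no test was made. The calculation was tested on simulated data.

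Genes named were the 10 heat shock genes, each other list's most abundant gene and its highest and lowest ratios in the Caprin-1 precipitates and over IgG in shSCR cells, and the 5 nearest profiles to the widest-ranging gene. Dnajc21, Hscb and Sil1, and the markers named singly, fall outside this rule and were named after their values were seen, to account for counts. Members and lists were chosen with earlier results of these data known. Of the symbols, 12957 matched the RefSeq table of GRCm38.p6, which gave loci. Alternatives were trimmed-mean and median-of-ratios scaling, no filter, a filter of 20 CPM, 5 added reads, the most abundant transcript alone and the shorter motif. Python 3.11.15, pandas 2.3.3, numpy 2.4.6 and SciPy 1.17.1 were used.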

Additional observations from a re-analysis of the deposited data

How the results depend on the processing

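Hspb1 kept its direction under every alternative that tested it, with log2 ratios of shCerS4 over shSCR of −2.37 to −2.19 with Caprin-1 and −1.57 to −1.42 with IgG, and Caprin-1 over IgG ratios of 1.03 to 1.26 in shSCR cells. A filter of 20 CPM removes Hspb1, so its 1 call became 0 in each comparison that had it. Trimmed-mean scaling moved the medians of the 10 genes from −0.02 to −0.16 with Caprin-1, from −0.04 to −0.11 with IgG, from 0.15 to 0.35 for Caprin-1 over IgG in shSCR cells and from 0.10 to 0.23 in shCerS4 cells. Median-of-ratios scaling moved them to −0.15, −0.13, 0.32 and 0.24. Both act on all genes alike: under trimmed-mean scaling the all-gene medians went from 0.146 to 0.005, 0.102 to 0.029, −0.132 to 0.069 and −0.107 to 0.027. Both raised the heat shock genes higher past 1.5-fold in shSCR cells from 1 to 3, while the share of all genes went from 11.4% to 20.3% and 18.9%.

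Counts over all genes past 2-fold moved more. In shSCR cells, Caprin-1 over IgG, 174 genes higher became 499 and 448 under the 2 scalings, and 1337 lower became 851 under trimmed means. In shCerS4 cells 96 higher became 217 and 227. With no filter, shCerS4 over shSCR gave 1270 higher and 927 lower with Caprin-1 (643 and 509 with the filter) and 1238 and 1181 with IgG (585 and 549). Caprin-1 over IgG then gave 418 and 2050 in shSCR cells, 356 and 1359 in shCerS4 cells (825 lower with the filter) and 457 and 311 for their difference (65 and 36). The filter of 20 CPM gave 353 and 333 with Caprin-1, 297 and 338 with IgG, 113 higher in shSCR and 53 higher in shCerS4 cells, and 8 and 3 for the difference. The most abundant transcript alone gave 265 higher in shSCR and 181 in shCerS4 cells, and 278 and 174 for the difference. The shorter motif raised the share of promoters from 0.603% to 15.1%. Adding 5 reads kept every result on its side. No paired analysis was possible because each group was 1 library. Hspb1, with 73 reads in its lowest library, is limited most by depth.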
